A study of Mus musculus with 2 samples.

Results

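The genes followed here by symbol belong to lipid handling and to the TREM2 receptor of macrophages: Trem2, Tyrobp, Apoe, Apoc2, Lpl, Fabp4, Fabp5, Gpnmb, Lgals3 and Plin2. They are 10 of the 55536 annotated genes measured, and all 10 symbols were found once each. The samples were bone marrow-derived macrophages of C57BL/6J mice, primary cells grown from marrow. All had received 100 ng/ml Lipid A, the part of bacterial lipopolysaccharide that the receptor TLR4 binds, for 30 min. RNA of the nucleoplasmic fraction, called nuclear in other labels, was depleted of ribosomal RNA and sequenced. There was 1 group of 2 libraries, biological replicates 1 and 2, made from 1 µg and 500 ng of RNA. An unstimulated sample was not analysed here, so no gene can be said to respond to Lipid A, and no test between conditions was possible. Both libraries cite 1 donor entry and the labels do not state separate cultures, and their spread may thus be technical.

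TREM2 is a surface receptor of macrophages and microglia that binds lipids and lipoproteins, among them those that carry apolipoprotein E. It has no signalling tail of its own and pairs with TYROBP, an adaptor with an activation motif that recruits the kinase SYK. Lipid-laden macrophages in adipose tissue, atherosclerotic plaques and the brain are known for high levels of these genes together with Gpnmb, Lgals3, Lpl and the fatty acid binding protein genes. Because nuclear RNA holds unfinished transcripts, the annotated transcripts that keep an intron matter for reading the levels of these genes.

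Reads of Fabp4, Fabp5 and Trem2 lay to a large part on transcripts annotated as retained intron. The sequences below show what separates such a transcript from the spliced one at the first splice site. Lower case is exon and capitals are the kept intron, and each line is the sense strand, as in the transcript. They were taken from the GENCODE M21 transcripts, whose coordinates are mm10; for a joined pair the coordinates give the outer ends.
Fabp4-201, exons joined, chr3:10206103-10208458: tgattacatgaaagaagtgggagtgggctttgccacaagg
Fabp4-202, intron kept, chr3:10208419-10208458: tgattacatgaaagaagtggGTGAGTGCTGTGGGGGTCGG
Fabp5-201, exons joined, chr3:10012699-10014990: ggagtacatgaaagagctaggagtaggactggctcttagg
Fabp5-202, intron kept, chr3:10012699-10012738: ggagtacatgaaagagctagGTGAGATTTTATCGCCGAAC
Trem2-201, exons joined, chr17:48346576-48348476: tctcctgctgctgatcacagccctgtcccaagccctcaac
Trem2-203, intron kept, chr17:48346576-48346615: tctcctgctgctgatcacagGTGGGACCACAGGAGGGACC
Gpnmb-201, exons joined, chr6:49036773-49042786: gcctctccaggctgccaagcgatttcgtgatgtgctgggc
Gpnmb-205, intron kept, chr6:49036773-49036812: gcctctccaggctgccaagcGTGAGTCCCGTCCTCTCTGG

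The 2 libraries held 15846221 and 14874869 reads on annotated genes, in the expected counts of the deposited tables. Levels are given in TPM, transcripts scaled for their length and to a fixed total per library, so that genes can be compared within a library. TPM in general was lower in replicate 2, by a median log2 ratio of -0.44 over the 10448 genes whose mean count reached 50. The ratios between libraries below therefore use read counts scaled by TMM, which put the median gene at -0.03, with quartiles of -0.39 and 0.37. Mitochondrial genes took 2.18% of the reads in replicate 1 and 6.14% in replicate 2. Brackets after a ratio give the 95% interval of counting error only.

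Of the 10 genes, 9 were detected, meaning that each library gave them 1 TPM or more. That was so for 20.7% of all annotated genes and for 42.4% of protein-coding genes. The median over the 10 was 150 TPM, beside a median of 8.58 TPM over the protein-coding genes that were detected. Together they took 1.11% of the reads in replicate 1 and 1.25% in replicate 2, and Gpnmb alone made up 75.2% and 72.4% of their reads. In bulk RNA such as this, fewer cells of a type and less RNA per cell cannot be told apart.

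**Figure D1:**
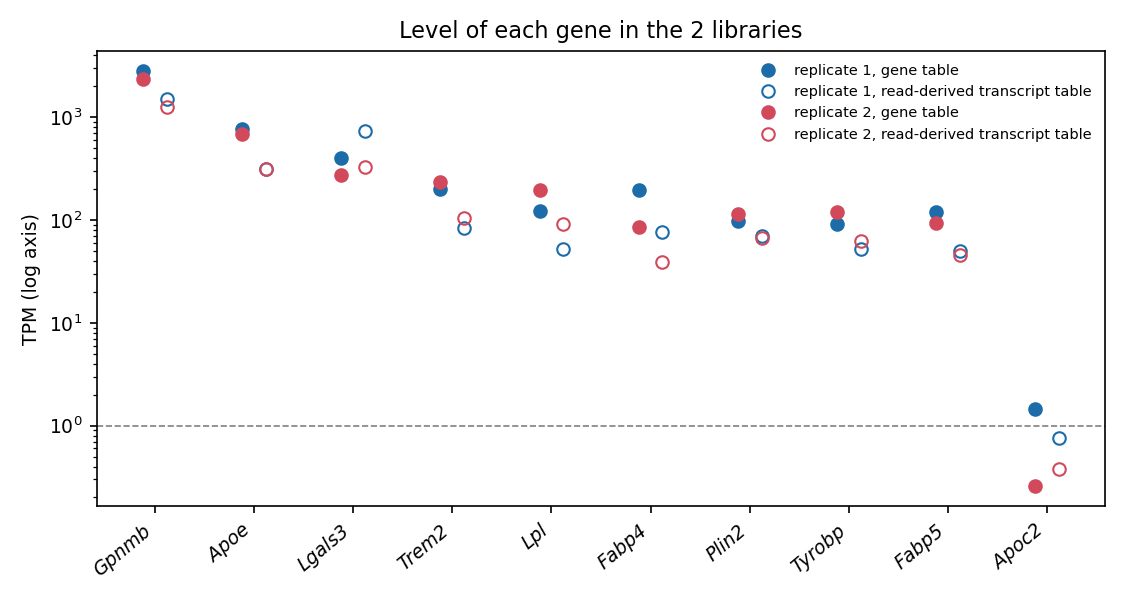
TPM (log axis) of each gene in replicate 1 (blue) and replicate 2 (red), from the gene tables (filled) and from the transcript tables derived directly from the reads (open); the dashed line marks 1 TPM. Gpnmb stands highest at 2794 and 2382 TPM in the gene tables, Apoc2 falls to 1.45 and 0.26 TPM, and Lgals3 is the gene whose open points lie above its filled ones in both libraries.

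Trem2, the receptor gene (ENSMUSG00000023992.14, chromosome 17, 48346401 to 48354147, mm10), had 4405 reads in replicate 1 and 6243 in replicate 2. Its level was 200 and 235 TPM, or 217 ± 24.4 TPM (SD, n = 2). It ranked 143 among 22015 protein-coding genes by mean TPM. The scaled log2 ratio of replicate 2 over replicate 1 was 0.57 [0.51, 0.62], higher than in 83.7% of genes.

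Tyrobp, the adaptor gene (ENSMUSG00000030579.10, chromosome 7, 30413760 to 30417585), had 555 and 965 reads. These gave 91.7 and 119 TPM, or 106 ± 19.6 TPM (SD, n = 2). Trem2 stood above its adaptor in each library, by 2.18 times in replicate 1 and 1.96 times in replicate 2 on the TPM scale. The Tyrobp log2 ratio between libraries was 0.86 [0.71, 1.02], so replicate 2 was higher for the receptor and for the adaptor alike.

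Apoe, the gene of a lipoprotein ligand of TREM2 (ENSMUSG00000002985.16, chromosome 7, 19696109 to 19699188), had 10678 and 12574 reads. It reached 763 and 693 TPM, or 728 ± 49.4 TPM (SD, n = 2), and ranked 20 among protein-coding genes. Its scaled log2 ratio was 0.30 [0.26, 0.34], but -0.14 as a plain ratio of TPM, where the median gene stood at -0.44. Against the median gene it was thus higher in replicate 2 on both scales, by 0.34 and 0.30.

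Apoc2, which encodes the cofactor that lipoprotein lipase needs (ENSMUSG00000002992.17, chromosome 7, 19671579 to 19677941), was the gene not detected. It had 10 reads in replicate 1 and 2 in replicate 2, or 1.45 and 0.26 TPM. The scaled ratio was 0.209 with a counting interval from 0.0223 to 0.982, too wide to set a size. Of its 31-base words, 78.8% also occur in the overlapping gene Gm44805, which had 0 reads in both libraries. Reads that fit either gene cannot be told apart.

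Lpl, the gene of lipoprotein lipase, which frees fatty acids from circulating triglyceride (ENSMUSG00000015568.16, chromosome 8, 68880491 to 68907448), had 8070 and 15854 reads. It stood at 122 and 195 TPM, or 158 ± 51.6 TPM (SD, n = 2). Replicate 2 was 2.06-fold higher after scaling, a log2 ratio of 1.04 [1.00, 1.08] whose interval begins at the 2-fold line. No other of the 9 genes at that depth passed 2-fold. Over all 10448 genes of that depth, 5.22% were more than 2-fold higher in replicate 2 and 3.8% more than 2-fold lower, and the 1 of 9 is to be read against those shares. By the plain ratio of TPM the Lpl value was 0.68 and Fabp4 was the gene past 2-fold, at -1.20. The median gene stood at -0.44 on that scale, where 191 of the 10448 genes were past 2-fold higher and 1586 lower. Against the median gene on the TPM scale, Lpl was at 1.11 and Fabp4 at -0.76.

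Fabp4 and Fabp5 encode small cytosolic carriers of fatty acids and lie in 1 cluster on chromosome 3. Fabp4 (ENSMUSG00000062515.3, 10204088 to 10208576) had 8020 and 5069 reads, or 196 and 85.6 TPM, a mean of 141 ± 78.4 (SD, n = 2). Fabp5 (ENSMUSG00000027533.10, 10012548 to 10016607) had 3312 and 2220 reads, or 119 and 92.7 TPM, a mean of 106 ± 18.5 (SD, n = 2). Both were lower in replicate 2 by scaled reads, with log2 ratios of -0.60 [-0.65, -0.55] and -0.51 [-0.59, -0.43]. For Fabp5 this direction depended on the measure: relative to the median gene it was 0.08 by TPM, and the scaled log2 ratio was 0.48 when reads on the intron-keeping transcript were left out, a measure chosen after the data were seen. The order of the pair turned between libraries, with Fabp4 1.65 times Fabp5 in replicate 1 and Fabp5 1.08 times Fabp4 in replicate 2.

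Plin2, which encodes a coat protein of lipid droplets (ENSMUSG00000028494.12, chromosome 4, 86648386 to 86670060), had 2231 and 3294 reads. It stood at 98.4 and 115 TPM, or 107 ± 11.8 TPM (SD, n = 2), with a log2 ratio of 0.63 [0.55, 0.71]. It was close to Fabp5 and Tyrobp in level and higher in replicate 2, as the Trem2, Tyrobp and Lpl values were. Of its 31-base words, 5.05% occur in other genes, most of them in the pseudogene Gm12551, which had 0 and 1 reads.

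Gpnmb, the gene of a glycoprotein of lysosomes and the cell surface (ENSMUSG00000029816.10, chromosome 6, 49036546 to 49070929), had 131903 and 135091 reads. They were 0.832% [0.828, 0.837] and 0.908% [0.903, 0.913] of all reads on annotated genes (95% Wilson intervals). Its 2794 and 2382 TPM, or 2588 ± 291 TPM (SD, n = 2), put it at rank 2 among protein-coding genes. On average it was 3.56 times Apoe and 24.5 times Tyrobp. Its scaled log2 ratio was 0.10 [0.09, 0.11], near the middle of all genes at percentile 59.2. By the plain ratio of TPM it was -0.23, where the median gene stood at -0.44.

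Lgals3 encodes galectin-3, a lectin that binds β-galactosides and gathers at damaged lysosomes (ENSMUSG00000050335.17, chromosome 14, 47367751 to 47386160). It had 6121 and 5181 reads, or 401 and 274 TPM, a mean of 337 ± 90.1 (SD, n = 2). Its log2 ratio was -0.18 [-0.23, -0.12], at percentile 40.1 of all genes.

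By mean TPM of the gene tables the order was Gpnmb, Apoe, Lgals3, Trem2, Lpl, Fabp4, Plin2, Fabp5, Tyrobp and Apoc2. The ranges of the 2 libraries did not overlap for Gpnmb over Apoe, Apoe over Lgals3, Lgals3 over Trem2 and Tyrobp over Apoc2. Trem2 over Lpl was separated only narrowly, with 200 TPM at the lowest against 195 at the highest. The read-derived tables reversed Apoe and Lgals3 in both libraries, with Lgals3 at 732 and 330 TPM and Apoe at 311 and 316. There the ranges of Trem2 (84.1 and 105 TPM) and Lpl (52.4 and 92.5) overlapped. The place of Apoe against Lgals3 thus depends on the table used. Trem2 stood above Lpl within each library in both kinds of table, and only the separation of their ranges depends on the kind. From Lpl down to Tyrobp each neighbour overlapped the next in the gene tables, so the order of Lpl, Fabp4, Plin2, Fabp5 and Tyrobp is not fixed by these libraries.

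**Figure D2:**
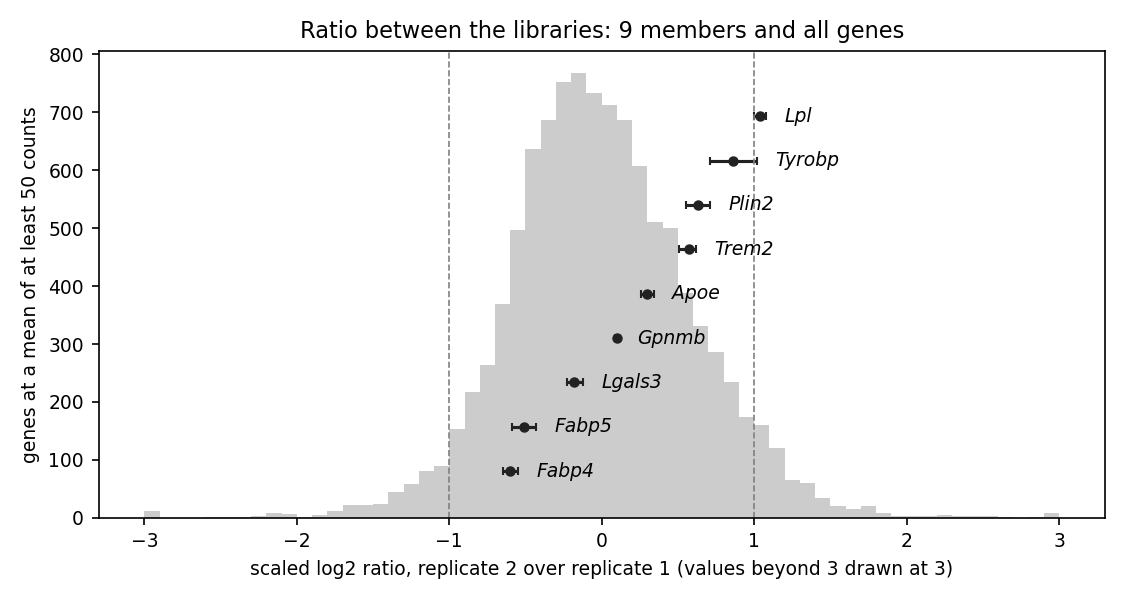
Scaled log2 ratio of replicate 2 over replicate 1 for the 9 genes whose mean count reached 50 (points, with 95% counting intervals), over a histogram of the 10448 genes at that depth. Dashed lines mark 2-fold either way. Lpl at 1.04 lies past the line, and 6 of the 9 are above 0 by scaled reads. By the ratio of TPM, not drawn, 4 of 9 are above 0, and Apoe and Gpnmb fall below 0. The median gene stood at -0.44 by that ratio, and 7 of 9 were above it.

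Over the 9 genes the scaled log2 ratio had a median of 0.30, with 6 genes higher and 3 lower in replicate 2. By the ratio of TPM 4 were higher and 5 lower. Against the median gene, 6 of 9 were higher by scaled reads and 7 of 9 by TPM. The starting RNA and the mitochondrial share differed between the same 2 libraries, and their part in these ratios was not tested.

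An annotated retained-intron transcript exists for 6 of the 10 genes, and their shares differed widely. The share of a gene's reads on such transcripts is given with its 95% Wilson interval. It was 86.4% [85.7, 87.2] in replicate 1 and 91.3% [90.5, 92.1] in replicate 2 for Fabp4. For Fabp5 it was 71.4% [69.8, 72.9] and 42.9% [40.9, 45]. Trem2 followed at 41.6% [40.1, 43] and 39.1% [37.9, 40.3], so that its replicates differed little where those of Fabp5 differed widely. For Trem2 the share is not one of intron alone, since Trem2-203 runs on past the end of Trem2-201. Of its 3735 bases outside Trem2-201, 1861 lie in introns and 1874 beyond that end. The added bases of Fabp4-202 and Fabp5-202 all lie in introns of the spliced form. Gpnmb had 9.66% [9.51, 9.82] and 6.88% [6.75, 7.02]. For Lpl the share was 0.607% [0.46, 0.802] and 0.208% [0.148, 0.292], and for Apoe 0.0843% [0.0444, 0.16] and 0.135% [0.0844, 0.216]. The read-derived tables put Lpl higher, at 3.72% and 1.72%, outside these intervals. The median over 5834 protein-coding genes with such a transcript was 13.7% and 12.9%. Fabp4, Fabp5 and Trem2 thus lay above that median and Gpnmb, Lpl and Apoe below it in both libraries.

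Where the intron-keeping transcript is the longer one, its share of reads is larger than its share of TPM. As percent of the gene's TPM, the retained-intron transcripts were 51.5% and 64.4% of Fabp4, 38.6% and 16.2% of Fabp5 and 11.7% and 10.9% of Trem2. For Gpnmb the order reversed, with 21.7% and 22.4% of TPM, since its intron-keeping transcripts of 1832 and 645 bases are shorter than the main one of 3701. The medians of the same percent over the 5834 genes were 25.9% and 24.2%. On this scale Trem2 and Gpnmb were below the median and Fabp4 above it in both libraries, while Fabp5 was above it in replicate 1 and below it in replicate 2.

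What can be counted in an intron depends on the annotation. Fabp4-202 spans the whole gene in 1 exon, and so 100% of the intron bases of Fabp4-201 can receive reads. For Fabp5 this was 84% of the intron bases, for Apoe 42.4%, for Trem2 41.5%, for Lpl 27.5%, for Plin2 12.3% and for Gpnmb 10.8%. In Tyrobp, Apoc2 and Lgals3 it was 2.08%, 1.85% and 0.409%. The retained-intron transcript of Apoe, Apoe-211, alone covers 23% of the intron bases of Apoe-209 and had 9 and 17 reads. Tyrobp and Lgals3 have no annotated retained-intron transcript, and an unspliced form of them would mostly go uncounted. In Gpnmb and Lpl most intron bases cannot be counted either, so their low shares say little about unspliced RNA.

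**Figure D3:**
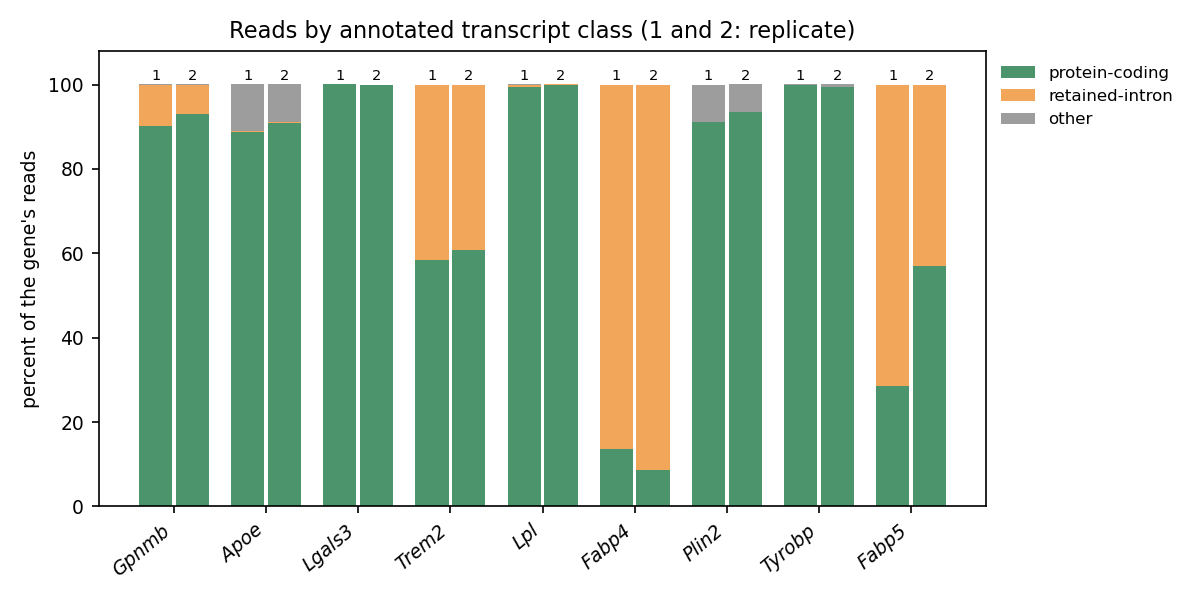
Percent of each gene's reads on transcripts annotated as protein-coding (green), retained-intron (orange) or another class (grey), for replicate 1 (left bar) and replicate 2 (right bar) of the 9 detected genes. Fabp4 is mostly orange in both libraries (86.4% and 91.3%), and Fabp5 is so in replicate 1 (71.4%) more than in replicate 2 (42.9%).

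The reads on spliced and on intron-keeping transcripts of the fatty acid binding protein genes differed between the libraries by unlike amounts. Fabp4-201, the spliced form, had 1088 and 439 reads, with a log2 ratio of -1.25 after scaling, and Fabp4-202 had 6932 and 4630, a ratio of -0.52. Fabp5 showed the opposite arrangement. Its spliced Fabp5-201 had 947 and 1266 reads, a ratio of 0.48, and Fabp5-202 had 2365 and 953, a ratio of -1.25. Over 2925 genes with at least 50 counts on each kind, the medians were -0.25 for retained-intron reads and -0.20 for the rest, and 53.6% of genes had the higher ratio on the rest. On spliced transcripts alone, Fabp4-201 stood at 95.3 and 30.4 TPM and Fabp5-201 at 73 and 77.7 TPM.

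In Trem2 both kinds were higher in replicate 2, at 0.48 for Trem2-203 and 0.63 for the other transcripts. The coding forms had close shares in the 2 libraries. Trem2-201 made up 68.5% and 70% of the gene's TPM and Trem2-202 19.7% and 18.4%. They differ at the start of exon 4, where Trem2-202 keeps 55 more bases. Since 55 leaves a remainder of 1 on division by 3, the reading frame shifts, and the annotated coding sequence runs to 249 codons in Trem2-202 against 227 in Trem2-201. The joints of exons 3 and 4 are shown with the added bases in capitals, both spanning chr17:48351172-48351765.
Trem2-201: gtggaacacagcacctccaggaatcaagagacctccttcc
Trem2-202: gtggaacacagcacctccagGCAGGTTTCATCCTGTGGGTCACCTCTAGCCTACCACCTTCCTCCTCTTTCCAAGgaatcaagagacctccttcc
Trem2-202 had 559 and 767 reads. Their assignment SD, the uncertainty the deposited table gives for splitting reads among transcripts, was 36.5 and 44.6 reads, small beside the counts.

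In Gpnmb the makeup differed more between the libraries than the total. Gpnmb-201 had 114846 and 112012 reads, and Gpnmb-203, whose last exon is another one, had 3952 and 13728, or 1.86 as a scaled log2 ratio. Its part of the gene's TPM was 3.75% in replicate 1 and 12.4% in replicate 2. The annotated coding sequences are 574 codons in Gpnmb-201 and 526 in Gpnmb-203. Of the 2 retained-intron transcripts, Gpnmb-205 was lower in replicate 2, with 11381 and 6017 reads, and Gpnmb-204 higher, with 1367 and 3282. The assignment SDs of Gpnmb-203 were 104 and 240 reads, far below the gap.

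Tyrobp reads were split between Tyrobp-202, with 329 and 840 reads, and Tyrobp-201, with 225 and 120. These differ only at their ends and the assignment SD was 47.4 and 58.7 reads, so their split is less firm than the total. Apoe-209 held 77.1% and 74.7% of Apoe TPM, Lpl-201 99% and 99.6% of Lpl, and Plin2-201 69.8% and 74.2% of Plin2. In the read-derived tables Plin2-201 still led but held less, 33% and 50.8% of TPM, with Plin2-207 at 26.2% and 20.9%. Apoc2-201 held all 10 reads in replicate 1 and Apoc2-202 both reads in replicate 2.

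Lgals3 differed between the transcript tables in another way than the other genes. Lgals3-203 led in the alignment-derived tables, with 70.6% and 79.7% of TPM, ahead of Lgals3-201 at 16.6% and 8.92%. Lgals3-206, a transcript of 210 bases, had 3 and 2 reads there but 1113.3 and 881.1 estimated counts in the tables derived directly from the reads. Being so short it held 69.9% and 55.9% of Lgals3 TPM in these, against 25.2% and 38.3% for Lgals3-203. The summed level of Lgals3 in the latter was 732 and 330 TPM. That is 1.57 times its gene-table level on average, where the median over 9318 detected protein-coding genes was 0.576 times. The other 9 genes lay between 0.412 (Fabp4) and 0.664 (Apoc2) times. Of the 10 genes, Lgals3 is thus the one farthest from that median ratio and the only one higher in the read-derived tables on average.

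RefSeq promoter windows of GRCm38.p6, the 250 bases before a start, were at hand for 6 of the 10 genes. Tyrobp, Lpl, Fabp4 and Fabp5 had none. Apoe has 3 RefSeq starts, and nearly all its reads lay on transcripts grouped with 1 of them. Transcripts that begin within 200 bases of the most upstream start held 10616 and 12484 reads, 99.4% and 99.3% of the gene. Most of these were on Apoe-209, with 82.5% and 77.2% of the gene's reads, which begins 180 bases downstream of that start. Apoe-206, which begins at that start, held 5.66% and 12.5%. The upstream window printed below therefore does not reach the start of Apoe-209. Transcripts of the middle start held 0 and 0, or 77.6 and 45.2 estimated counts in the read-derived tables, and those of the third 53 and 73. The windows of the upstream and the middle start are given with motif letters in capitals.
Apoe upstream start, chr7:19699189-19699438, minus strand: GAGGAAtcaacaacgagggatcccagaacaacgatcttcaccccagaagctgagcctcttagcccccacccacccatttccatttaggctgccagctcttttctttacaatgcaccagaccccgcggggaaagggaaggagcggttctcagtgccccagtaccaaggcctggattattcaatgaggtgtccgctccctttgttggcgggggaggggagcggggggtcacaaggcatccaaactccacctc
Apoe middle start, chr7:19698622-19698871, minus strand: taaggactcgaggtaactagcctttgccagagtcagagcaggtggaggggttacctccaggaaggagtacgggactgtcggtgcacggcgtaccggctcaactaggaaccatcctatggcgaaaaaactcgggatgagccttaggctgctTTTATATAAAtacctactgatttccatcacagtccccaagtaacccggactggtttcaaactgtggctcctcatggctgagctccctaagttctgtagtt
Trem2, chr17:48346151-48346400, plus strand: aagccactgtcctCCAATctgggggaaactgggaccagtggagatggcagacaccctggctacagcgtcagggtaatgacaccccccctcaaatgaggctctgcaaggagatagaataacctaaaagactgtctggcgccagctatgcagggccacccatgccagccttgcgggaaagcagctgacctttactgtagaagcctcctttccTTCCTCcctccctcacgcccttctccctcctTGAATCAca

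The search took in 7 motifs on both strands. They were TATAAA for the TATA box, CCAAT for the box of that name, GGGCGG for the GC box and GAGGAA for the core of PU.1 sites. The others were TGANTCA for AP-1, CACGTG for the E-box and TCATGTG for the M-box. The upstream Apoe window held GAGGAA at its far end, 250 bases before the start, and no TATAAA. The middle window held TATAAA on each strand, at 96 and 100 bases before the start, in overlapping letters. All 4 annotated Trem2 transcripts begin within 200 bases of its RefSeq start, so the reads could not show another start. The Trem2 window had TGAATCA 9 bases before the start, GAGGAA on the minus strand at 40 and CCAAT at 237. Of all 32851 windows of this length, 12.4% held TATAAA, 23.3% GAGGAA, 6.75% TGANTCA and 33.8% CCAAT. The shares for the GC box, the E-box and the M-box were 32.7%, 6.02% and 3.25%. Lgals3 had CCAAT and GGGCGG, Plin2 had CCAAT, and the Gpnmb and Apoc2 windows had none of the 7. These are matches of letters, and no measurement of binding was made here.

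Most genes beside the members in the Apoe and Fabp clusters had few or no reads. In the Apoe cluster, which spans 43.9 kb, Apoc1 had 0 reads in both libraries and Apoc4 0 and 2. Tomm40, a mitochondrial import gene 2125 bases upstream of Apoe, had 228 and 169. Apoc4 had 335 and 215 estimated counts in the read-derived tables, so its absence rests on the alignment-derived ones. Along the 289 kb of the Fabp cluster, Pmp2, Fabp9 and Fabp12 had 0 reads in both libraries between and beside Fabp5 and Fabp4. High reads in these clusters, by the alignment-derived tables, were thus limited to Apoe, Fabp4 and Fabp5, apart from the lower Tomm40 and, in the Fabp cluster, Gm38335 with 39 and 52 reads.

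**Figure D4:**
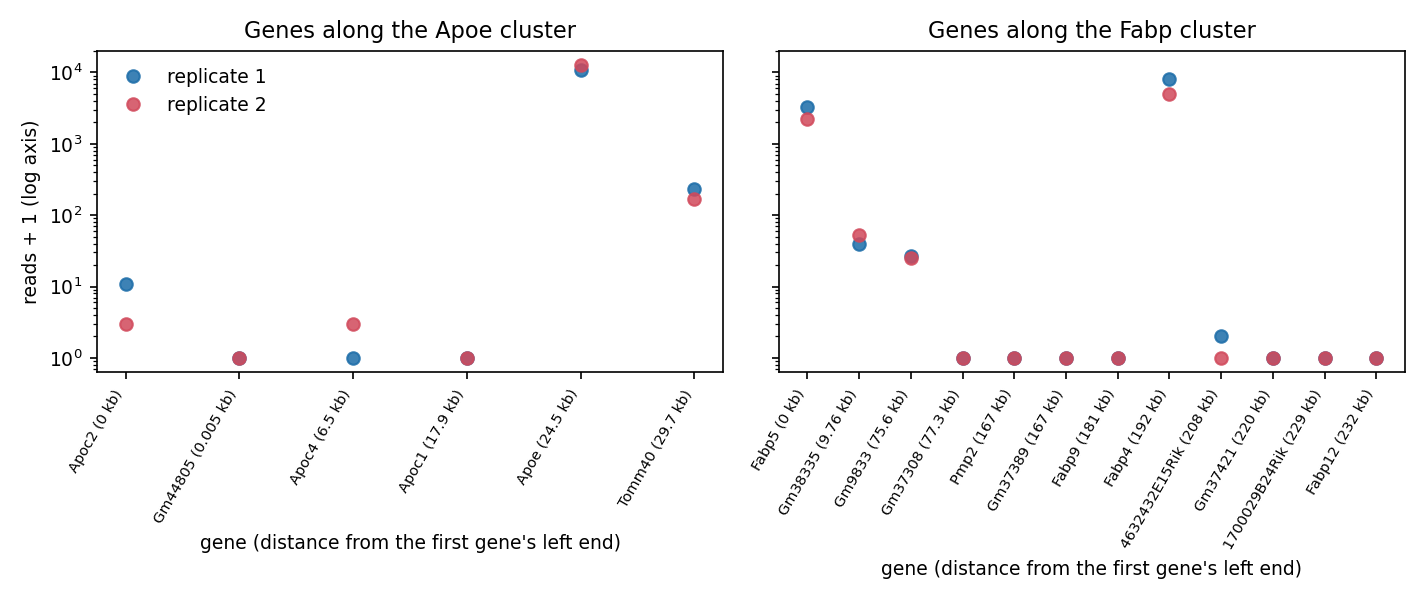
Reads + 1 (log axis) in replicate 1 (blue) and replicate 2 (red) for the genes along the Apoe and Fabp clusters, with the distance of each from the cluster's left end. Apoe (10678 and 12574 reads), Fabp5 (3312 and 2220) and Fabp4 (8020 and 5069) stand above the other genes drawn, of which Tomm40 is next with 228 and 169 reads and Gm38335 has 39 and 52.

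Neighbours of the other members differed in level. Hcst, the gene of another adaptor, lies 127 bases from Tyrobp on the opposite strand and had 3 and 11 reads. Treml1, 5769 bases from Trem2, had 157 and 121. Gm19253, a pseudogene 701 bases past Gpnmb, had 21 and 96 reads. The low counts of Hcst and Gm19253 rest on the alignment-derived tables. The read-derived ones gave 46 and 66 estimated counts for Hcst and 124 and 427 for Gm19253. Dennd4c, 78495 bases from Plin2, had 7264 and 6251, Mapk1ip1l, 44547 bases from Lgals3, had 1853 and 1607, and Clptm1, 6546 bases from Apoc2, had 554 and 801. On the other side of Plin2, Gm12551 at 17135 bases had 0 and 1 reads, and on the other side of Lgals3, Dlgap5 at 1619 bases had 282 and 246. Fabp5l2, a Fabp5 pseudogene elsewhere in the genome, had 23 and 24 reads, and 9.21% of the 31-base words of Fabp5 occur in other genes. Trem2, Tyrobp, Apoe and Lgals3 share no such word with another gene.

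The relatives and partners of the members were described from lists, with their median TPM beside 8.58 for detected protein-coding genes and 0.42 for all protein-coding genes. The number detected in each list, here and below, is to be read against the 42.4% of protein-coding genes that were detected. Of 7 other Trem and Cd300 receptor genes, 4 were detected, and the median was 2.16 TPM. Cd300lb, Cd300ld and Treml1 led at 17.7, 8.73 and 8.02 TPM and Trem3 was lowest at 0.07, so Trem2 at 217 TPM stood above each of these relatives. Of 14 genes of signalling from TREM2 and TYROBP, 11 were detected and the median was 19.7 TPM. Syk, the kinase that TYROBP recruits, led at 218 TPM, the phosphatase gene Inpp5d followed at 112 and Adam17, a sheddase of surface proteins, at 82.8. Siglece was lowest at 0.225 TPM. In scaled reads these signalling genes had a median log2 ratio of -0.34, while Trem2 and Tyrobp had 0.57 and 0.86. The difference was not tested.

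Of 10 apolipoprotein and neighbouring genes, 2 were detected, and the median was 0.0125 TPM. Those were Apobec1, which edits apolipoprotein B RNA, at 189 TPM and Tomm40 at 8.46, followed by Apod at 0.23. Clu was among 5 at 0 reads in both libraries. In the gene tables Apoe was in that sense the only apolipoprotein gene above 1 TPM in both libraries among those listed. For Apoc4 this rests on those tables, since the read-derived ones gave it 335 and 215 estimated counts. Of 10 genes that act on lipoprotein lipase or resemble it, 5 were detected, and the median was 1.05 TPM. Lipa, the lysosomal acid lipase gene, led at 170 TPM, and Sel1l and Lmf1, both needed for Lpl to mature, stood at 52.7 and 7.55. Gpihbp1, which anchors the enzyme on capillaries, had 0 reads in both libraries.

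Of 11 other fatty acid binding protein genes and relatives, 1 was detected, Fabp3 at 2.29 TPM, and 8 had 0 reads in both libraries. Crabp2, a relative that carries retinoic acid, stood at 0.26 TPM. Of 18 lipid droplet and triglyceride genes, 10 were detected, and the median was 3.66 TPM. Dgat1, which makes triglyceride, led at 23.5 TPM, then Hilpda at 17.4 and Acsl4 at 12.2, and Plin1 had 0 reads. Plin2 at 107 TPM was above every gene of that list. Of 8 galectin genes, counting Lgals3bp, 5 were detected, and the median was 14.4 TPM. Lgals3bp, whose product binds galectin-3, stood at 190 TPM, Lgals8 at 66.3, Lgals1 at 32.3 and Lgals2 at 0.

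Among 19 genes known from lipid-associated macrophages, 17 were detected, and the median was 37.4 TPM. Spp1, the osteopontin gene, led at 673 TPM, followed by the protease genes Lgmn at 493 and Ctsz at 317, and Pmel was lowest at 0.215. Next above Pmel, and named beyond the rule, were Cst7, Itgax and Cd52. Cst7, the other gene not detected, stood at 1.24 and 0.86 TPM in replicates 1 and 2. Itgax and Cd52 had means of 2.66 and 9.23 TPM. Of 17 nuclear receptor and lipid uptake genes, 15 were detected, and the median was 34.1 TPM. The endocytic receptor gene Lrp1 stood at 399 TPM, the cholesterol exporter gene Abca1 at 174 and Soat1, which esterifies cholesterol, at 140, while Ppara had 0 reads. Most genes of both lists were thus detected, against 42.4% of protein-coding genes. The lists were chosen with earlier results of these data known, so their presence is a description only.

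**Figure D5:**
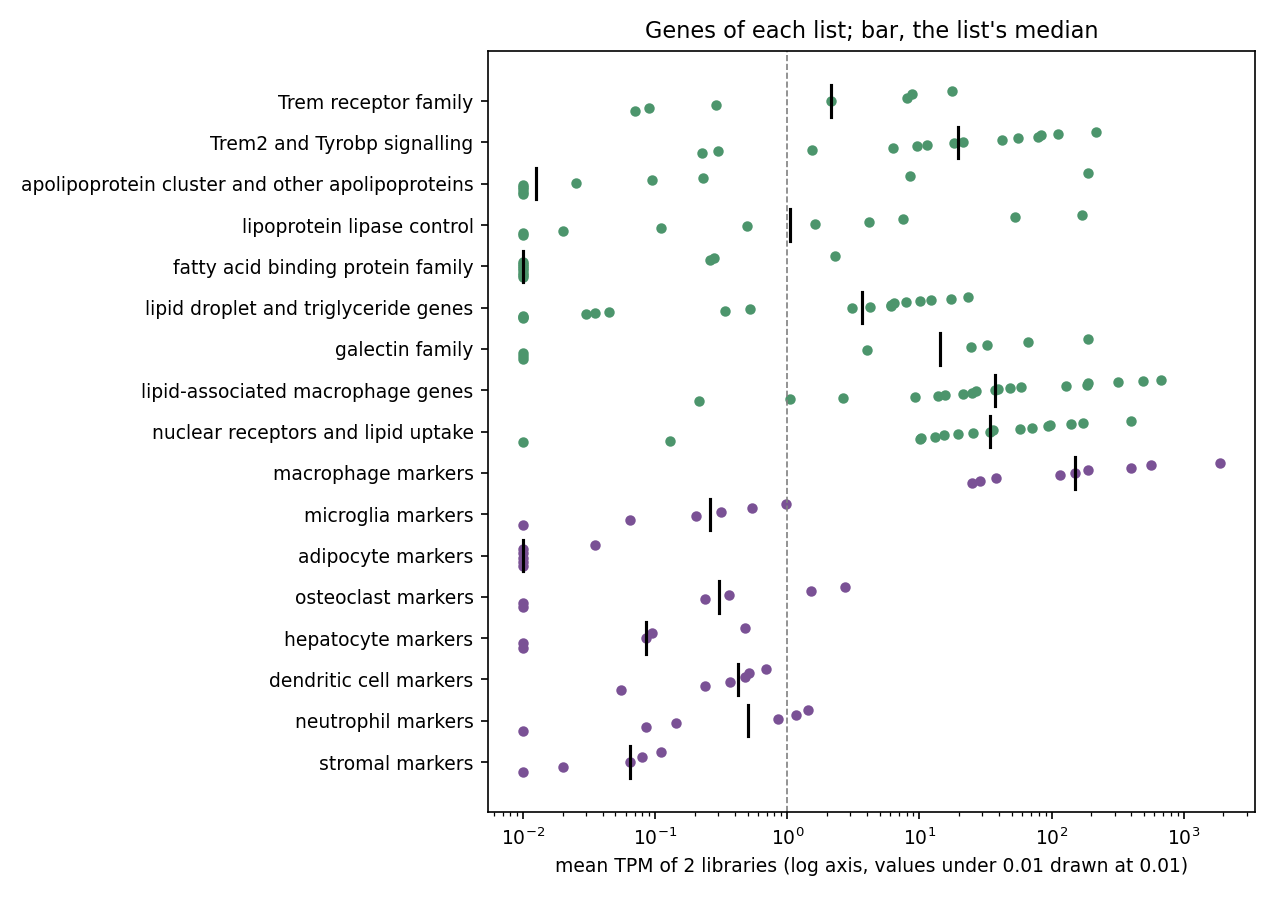
Mean TPM of the 2 libraries (log axis) for each gene of the 9 pathway lists (green) and the 8 cell type lists (purple), with the list's median as a bar and 1 TPM as a dashed line. Macrophage markers have a median of 151 TPM, while adipocyte, microglia and hepatocyte markers have medians of 0, 0.26 and 0.085.

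Of 70 genes in the 9 pathway lists whose mean count reached 50, 8.57% were past 2-fold higher in replicate 2 and 2.86% past 2-fold lower. Higher in replicate 2 by scaled reads were Cd300ld, Lgals1, Lipg, Pnpla2, Clec7a and Cd52, at log2 ratios of 1.61, 1.75, 1.02, 1.33, 1.36 and 1.19. Lower were Adam17 at -1.16 and Nr1h3, the gene of the sterol-sensing receptor LXRα, at -1.64. Lipg, Pnpla2, Clec7a, Cd52 and Nr1h3 are named only because they passed, after their values were seen. Over all genes at that depth the shares were 5.22% and 3.8%.

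Macrophage markers were high. The 9 were all detected, their median was 151 TPM and their summed levels were 3058 and 3730 TPM. Lyz2, the lysozyme gene, led at 1880 TPM, Csf1r and Cd14 stood at 569 and 399, and Fcgr1 was lowest at 24.8. Lyz2 was also past 2-fold higher in replicate 2, at 1.03. No adipocyte marker was detected and 5 of 6, Adipoq among them, had 0 reads in both libraries; Retn had 0 and 1. The 6 microglia markers had 72 and 83 reads in all, with none detected, and Sall1 at 0.

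Other cell types were low as well. The 5 hepatocyte markers had 6 and 4 reads in all, and Alb had 0. The 6 dendritic cell markers had 86 and 140 reads and the 5 stromal markers 22 and 19, with none detected. Of the 6 neutrophil markers 1 was detected, S100a9 at 1.17 TPM, and the 6 summed to 2.29 and 5.08 TPM. No osteoclast marker was detected, but Acp5 had 94 and 15 reads and Ctsk 45 and 27, and the list summed to 7.49 and 2.26 TPM. The neutrophil list was thus higher in replicate 2 and the osteoclast list in replicate 1, and the part of either in the members' ratios was not tested.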

How the data were processed

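Text files deposited with the tables name mm10 and GENCODE M21. By them the gene tables and the first transcript tables came from a transcriptome alignment, and the other transcript tables directly from the reads. Not given in the sources used here are the aligner, the counter and the use of strand. The deposited tables give expected counts and TPM per gene and transcript, per the file headers. The percent of a gene's TPM on each transcript is the deposited isoform percent, per the file headers. Per the file headers, the read-derived deposited tables hold estimated counts besides TPM.

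Members were found by symbol in the read-derived tables and joined by gene ID. Features that name no annotated gene, 1.19% and 0.213% of the expected counts, were left out. Expected counts were rounded, and TMM of edgeR 4.0.16 under R 4.3.3 gave a factor of 0.956 for replicate 2 over replicate 1. This step was tested on simulated data whose planted changes were far beyond 2-fold, so that test does not bear on calls near the 2-fold line. Detection needed 1 TPM or more in each library, and a call beyond 2-fold a mean of at least 50 counts. Intervals at 95% are exact binomial for ratios and Wilson for shares, and cover counting error only, since the reads carry no molecular identifiers and may repeat a molecule; a count of 0 allows up to 3. With 1 group there is no test. Shared words are the 31-base words of a gene's transcripts found in transcripts of other genes.

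Named genes were all 10 members, of each list the 3 highest by mean TPM and the lowest, nearest or overlapping genes and pseudogenes of a member's name; exceptions are marked, and some genes of the rule are not printed. The members and lists were chosen with earlier results of these data known. Alternatives were library size, DESeq2 1.42.0 size factors, ratios of TPM, the read-derived tables, other minimum levels and each library alone.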

Additional observations from a re-analysis of the deposited data

How the results depend on the processing

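No paired analysis was possible because there is 1 group. Leaving out a library leaves 1, with no spread. The median level of the 10 genes was 157 to 159 TPM in single libraries, 70.5 TPM in the read-derived tables and 635 TPM when TPM was rescaled to protein-coding genes. The number detected was 9, or 10 without replicate 2. The members' median log2 ratio of 0.30 became -0.14 by TPM, where all genes had -0.44, 0.48 by the read-derived tables and 0.48 without retained-intron transcripts, an alternative chosen after seeing the data; the cause was not tested. Members past 2-fold went from 1 of 9 to 2 of 10 when 1 count in each library sufficed, which added Apoc2 at 10 and 2 reads. Over all genes the count was 942 of 10448 (545 higher and 397 lower in replicate 2). It became 1777 of 10448 by TPM (191 higher and 1586 lower). At a mean of at least 10 counts it was 2083 of 14470, and at 1 count in each library 3958 of 18679. The median retained-intron percent over the 6 genes with such a transcript, 16.7% of TPM, was 24.3% of reads and 13.6% to 16.7% in single libraries. Library size and DESeq2 size factors moved no member's log2 ratio by more than a few hundredths. Apoc2 is limited by depth, and Lgals3 by how reads are assigned.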
